A study of Mus musculus with 14 samples.

Results

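Hnf4a encodes hepatocyte nuclear factor 4 alpha, and its signal was followed across 14 mouse arrays as every probe set that carried the symbol Hnf4a. These were 4 of 22690 probe sets on the Affymetrix Mouse 430A 2.0 array, and they stood for 1 of 12393 genes tested. The cells were hepatoblasts, the fetal liver progenitors of hepatocytes and bile duct cells, taken from wild-type mice at embryonic day 14 and immortalised by growth at clonal density. Each of 7 groups held 2 cultures, and whether these stem from 1 clone is not given in the sources used here. All constructs were under a doxycycline-inducible system, per the series text. On uncoated plates, where cells were kept for up to 5 days in what the protocol calls hepatocyte differentiation assays, the groups were cells with the isocitrate dehydrogenase 1 (IDH1) mutant R132C and cells with empty vector. On plates coated with rat tail collagen the groups were cells with the IDH2 mutant R172K, wild-type IDH2 (IDH2 WT), IDH1 R132C, wild-type IDH1 (IDH1 WT) and empty vector. Doxycycline at 25 ng/mL is stated for the IDH1 experiments. Whether the vector and IDH2 cultures received it is not given in the sources used here, nor is the exact number of days on uncoated plates. The medium held fetal bovine serum with epidermal growth factor, insulin-like growth factor II and insulin for every group. The series title names the inhibition of HNF4a by mutant IDH as the study's subject.

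HNF4A is a nuclear receptor that binds DNA as a homodimer at direct repeats of a receptor half-site. In liver it activates apolipoprotein, clotting factor and other hepatocyte genes and forms a network with the FOXA factors and C/EBP alpha, and it is also active in intestine, kidney and pancreatic islets. The gene has a pair of promoters: the upstream one is used in fetal liver, gut and pancreas, and the downstream one dominates in adult liver. Mutant IDH enzymes make 2-hydroxyglutarate, which inhibits dioxygenases that use 2-oxoglutarate.

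Hnf4a lies on chromosome 2 at chr2:163506811-163572907 on the plus strand (RefSeq, build GRCm38.p6). RefSeq's promoter entries give 2 starts, at 163506857 and 163547155, 40298 bases apart. The upstream start lies inside the gene range above. The end of its window, from 163506811 on, therefore falls within the annotated gene. The 250 bases before each are printed because they are the regulatory sequence of the gene described here. They are in lower case throughout, with no motif marked. The 4 probe sets are not assigned to either promoter in the sources used here.
Hnf4a before the upstream start, chr2:163506607-163506856 (+): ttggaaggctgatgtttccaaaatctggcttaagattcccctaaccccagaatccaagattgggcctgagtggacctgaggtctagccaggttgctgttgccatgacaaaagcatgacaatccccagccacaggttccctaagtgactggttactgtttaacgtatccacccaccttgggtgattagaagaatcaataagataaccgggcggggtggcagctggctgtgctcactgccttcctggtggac
Hnf4a before the downstream start, chr2:163546905-163547154 (+): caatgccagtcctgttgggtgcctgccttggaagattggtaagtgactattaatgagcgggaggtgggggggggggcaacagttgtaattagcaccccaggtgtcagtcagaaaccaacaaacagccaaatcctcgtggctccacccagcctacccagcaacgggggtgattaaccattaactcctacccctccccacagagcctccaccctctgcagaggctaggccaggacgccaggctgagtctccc
HNF4-type repeats were searched as CAAAGTCCA and CAAAGGTCA on both strands. Neither Hnf4a window held one, and 0.807% of 32851 mouse RefSeq starts did. Of 35 measured genes listed as direct HNF4A targets, 29 had a promoter entry and 2 of these (F7 and Cyp8b1, a clotting factor and a bile acid hydroxylase) held a match. That share counts starts, while the targets are counted as genes, some with more than 1 start. A match in letters is a description and not a binding site. The strings were searched letter for letter, so a missing match does not show that a repeat is absent.

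Median intensity ranged from 135 to 148 among the arrays, and r between the 2 cultures of a group was 0.994 to 0.998 across genes. R172K replicate 1 had the lowest median. The spread of a group's replicates, as an SD taken over genes, was 0.217 for R172K and 0.128 to 0.168 elsewhere. Precision is limited by 2 arrays a group. Idh1 stood at log2 11.81 and 11.97 in R132C cells, 11.995 and 12.135 in IDH1 WT cells and 11.97 and 12.26 in vector cells on collagen. R132C lay just below IDH1 WT, and the R132C and vector ranges overlapped. In R172K cells Idh1 stood at log2 11.21 and 11.78, against 11.91 and 12.28 in IDH2 WT cells, a change of -0.60 without a call (limma adjusted p = 0.1002). Idh2 on collagen stood at log2 10.82 and 10.94 in R172K cells, 10.86 and 10.78 in IDH2 WT cells and 10.83 and 10.80 in vector cells. Whether these probe sets read the introduced sequences is not given in the sources used here, so they do not check the labels. Of 11 measured hepatoblast markers none stayed below the arrays' lower quartile (log2 4.72 to 4.81) throughout, but 1 had a mean no higher than it. Alpha-fetoprotein, Afp, was at log2 9.09 to 11.63. On collagen Igf2, Dlk1 and Gpc3 were dim, at mean log2 5.53, 5.34 and 4.79 in R132C cells. In IDH1 WT cells they were at 5.58, 5.27 and 4.60. Albumin, Alb, which hepatoblasts also make in vivo, lay near that quartile at log2 4.29 to 5.21.

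In 3 of its 4 probe sets Hnf4a was lower in every culture with an IDH mutant on collagen than in any culture there without one. Of all probe sets 5.01% had this separation, and of all genes 6.19%. By probe set 1427001_s_at, the brightest of the 4 and the one that represents the gene, Hnf4a was 1.45-fold lower in the mutants than in their wild types. Singly, R172K passed the test against its wild type, in a call that some alternative settings lose, and R132C did not. The effects of the 2 mutants were not called different (limma adjusted p = 0.839). Neither wild type was called against vector. On uncoated plates Hnf4a was higher than on collagen by 1.18-fold over both kinds of cell, in a call that several alternative settings lose. Of the R132C cultures on uncoated plates, 1 lay within the range of cells without a mutant on collagen and 1 below it.

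The 4 probe sets differed widely in brightness. Over all arrays 1427001_s_at averaged log2 11.39, above 91.5% of probe sets, and 1427000_at averaged log2 9.70, above 76.6%. The dimmer 1421983_s_at averaged log2 6.84, above 47.1%, and 1450447_at averaged log2 6.14, above 40.9%. Different probe sets bind with different strength, so these levels do not rank transcripts. Across the 14 arrays, which share their groups, pairs of the 4 correlated at r = 0.67 to 0.91. In the platform annotation 1427001_s_at and 1427000_at share a source sequence, and 1421983_s_at and 1450447_at share another. The 4 are therefore not independent readings.

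In 1427001_s_at the log2 level on collagen was 10.90 and 10.85 in R172K cells, 11.46 and 11.60 in IDH2 WT cells, 11.24 and 10.98 in R132C cells, 11.55 and 11.50 in IDH1 WT cells and 11.51 and 11.61 in vector cells. All 4 mutant arrays were below all 6 others. On uncoated plates it was 11.26 and 11.60 in R132C cells and 11.74 and 11.68 in vector cells. One R132C culture there was at the level of cells without a mutant on collagen, and the other was near the higher R132C culture on collagen.

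In 1427000_at the log2 level on collagen was 9.31 and 9.13 in R172K cells, 9.80 and 9.99 in IDH2 WT cells, 9.21 and 9.32 in R132C cells, 9.89 and 9.78 in IDH1 WT cells and 9.80 and 9.82 in vector cells. Here the mutants overlapped each other and again lay below all 6 others. On uncoated plates it was 9.77 and 9.98 in R132C cells and 9.92 and 10.08 in vector cells, and these overlapped.

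In 1421983_s_at the log2 level on collagen was 5.84 and 5.91 in R172K cells, 6.87 and 7.16 in IDH2 WT cells, 6.40 and 6.72 in R132C cells, 6.77 and 7.31 in IDH1 WT cells and 6.85 and 7.05 in vector cells. R172K cells stood clear of R132C cells here, and the higher R132C array came close to the lowest IDH1 WT array. On uncoated plates it was 6.94 and 7.28 in R132C cells and 7.34 and 7.36 in vector cells.

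In 1450447_at, the dimmest, the log2 level on collagen was 5.70 and 5.99 in R172K cells, 6.27 and 6.15 in IDH2 WT cells, 6.13 and 5.88 in R132C cells, 5.98 and 6.27 in IDH1 WT cells and 6.15 and 6.40 in vector cells. Mutant and other arrays overlapped. On uncoated plates it was 6.18 and 6.20 in R132C cells and 6.30 and 6.38 in vector cells.

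**Figure D1:**
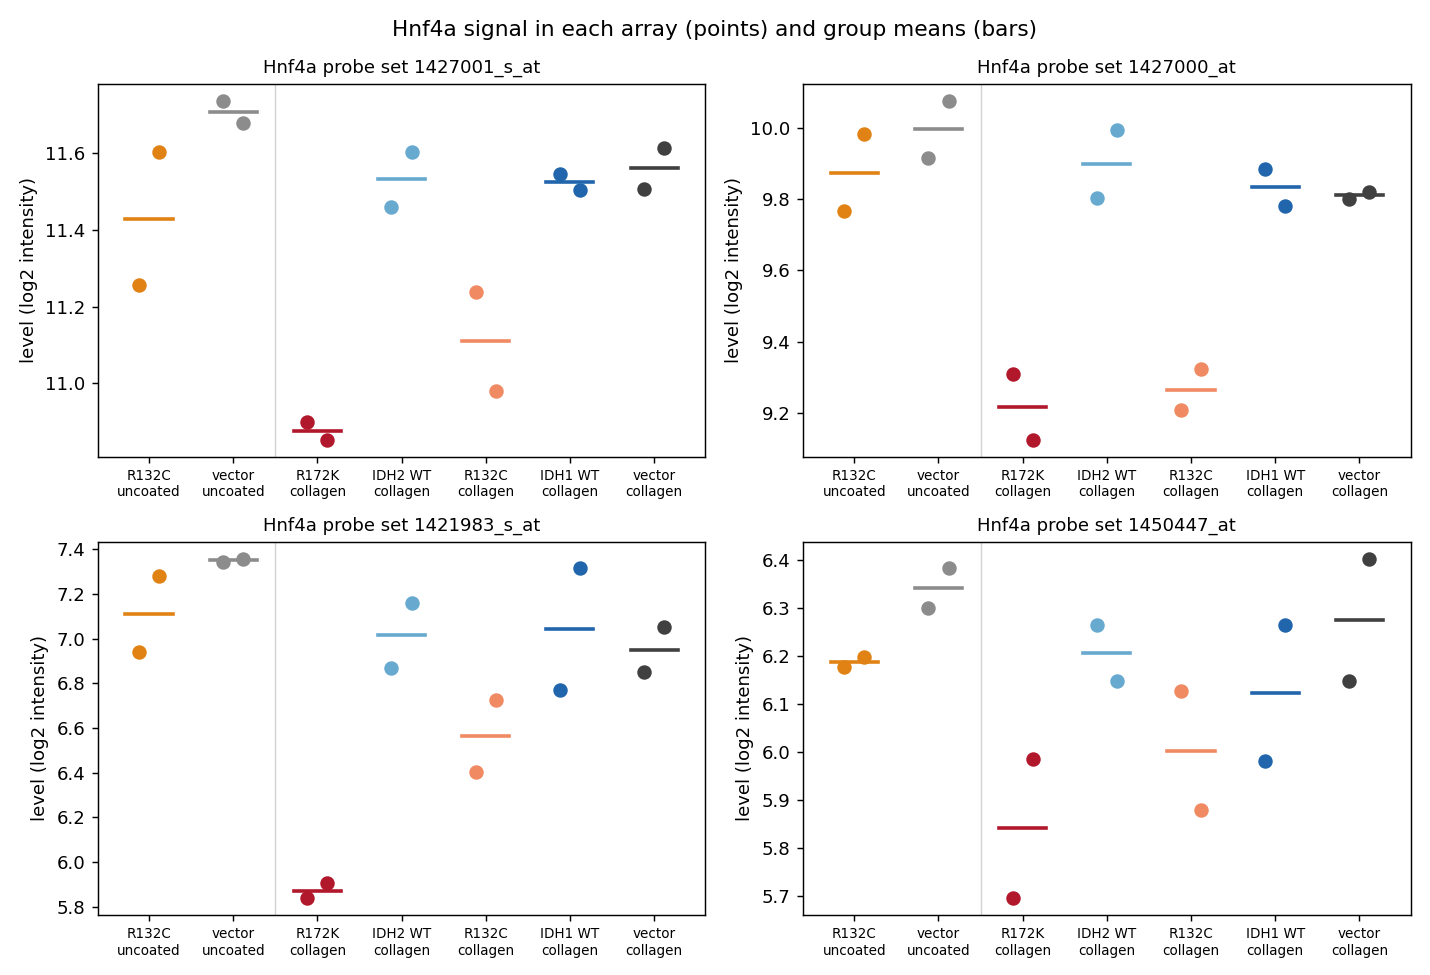
Log2 intensity of the 4 Hnf4a probe sets in each array (points) with group means (bars), uncoated plates left of the grey line and collagen right of it. In 3 of the 4 probe sets the 4 mutant arrays on collagen lie below the 6 other collagen arrays, as they do in 5.01% of all probe sets.

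Ordered by the mean of 1427001_s_at, the groups ran from R172K (log2 10.88) through R132C (11.11), R132C on uncoated plates (11.43), IDH1 WT (11.52), IDH2 WT (11.53) and vector (11.56) to vector on uncoated plates (11.71). Neighbours did not overlap at 3 steps: R172K to R132C, R132C to R132C on uncoated plates, and vector to vector on uncoated plates. The other neighbouring groups overlapped and have no settled order, and with 2 arrays a group a gap does not settle one either. Neither plate step was called (limma adjusted p = 0.0579 for R132C and 0.400 for vector). R172K was not tested directly against R132C, and these overlapped in 1427000_at. In 1450447_at every neighbouring pair overlapped. The moderated F test of limma gave an adjusted p of 0.000714 for any difference of Hnf4a among the 7 groups, where 35.5% of genes passed. Among the 5 collagen groups the adjusted p was 0.0182, where 1.27% of genes passed, and it was 0.118 with array weights and 0.0844 without R172K replicate 1. The same F tests, which 31.6% and 0.787% of probe sets passed, were passed by 1427000_at and 1421983_s_at, but not by 1450447_at (adjusted p = 0.175 and 0.573).

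The comparison of each mutant with its wild type asks what the mutation adds to the overexpressed enzyme. Averaged over both mutants, Hnf4a stood at log2 10.99 in mutant cells and 11.53 in wild-type IDH cells, a change of -0.54 (SE 0.081, 95% interval -0.71 to -0.36, limma adjusted p = 0.00462). In this comparison 3.61% of genes passed, 2.44% as lower, and 0.896% of genes had a change further down than Hnf4a. In the fit of single probe sets, where 2.06% passed, 1427000_at fell by 0.63 (SE 0.080, limma adjusted p = 0.00254) and 1421983_s_at fell by 0.81 (SE 0.13, limma adjusted p = 0.0106). The dim 1450447_at changed by -0.24 (SE 0.11, limma adjusted p = 0.299). In bulk RNA, fewer cells with Hnf4a and less Hnf4a RNA per cell cannot be told apart. Leaving out R172K replicate 1 gave -0.55 (limma adjusted p = 0.0142), which kept the call. Without R132C replicate 1 or IDH2 WT replicate 2, 1421983_s_at lost its call (adjusted p up to 0.0600).

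Taken singly, R172K changed Hnf4a by -0.66 against IDH2 WT (SE 0.11, limma adjusted p = 0.0162; 1.73% of genes passed). The dim 1421983_s_at showed the widest gap of the 4, 2.21-fold lower in R172K than in IDH2 WT cells (limma adjusted p = 0.0169; 1.02% of probe sets passed). The call of -0.66 was lost with array weights (adjusted p = 0.235), with only the arrays of those groups (0.0872), without IDH2 WT replicate 1 (0.0639) or 2 (0.179) and without R172K replicate 1 (0.0637). R132C changed Hnf4a by -0.41 against IDH1 WT (SE 0.11, 95% interval -0.66 to -0.17, limma adjusted p = 0.300), in a comparison that called 6 genes in all (0.0484%). The interval is for this gene alone, while the p is adjusted over all genes. The 3 other probe sets were lower with R132C too, by -0.57, -0.48 and -0.12, with no call (adjusted p = 0.198, 0.699 and 0.966). The mutants' effects differed by -0.24 (R172K minus R132C, 95% interval -0.59 to 0.11, limma adjusted p = 0.839), so the data show neither a difference nor equal effects.

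Against vector, which serves as the shared control of the following values, R172K changed Hnf4a by -0.68 (limma adjusted p = 0.00706; 4.27% of genes passed) and R132C by -0.45 (limma adjusted p = 0.279). For R132C against vector 0 genes passed limma's adjusted threshold, and 936 had an unadjusted p under 0.05. With array weights the adjusted p for R172K was 0.158, it was 0.0849 with only the arrays of those groups, and without vector replicate 2 it was 0.0777. Wild-type IDH1 changed Hnf4a by -0.036 (95% interval -0.28 to 0.21) and wild-type IDH2 by -0.028 (95% interval -0.28 to 0.22) against vector. Both intervals stop short of the change seen with both mutants.

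Setting the 4 mutant arrays on collagen against the 6 others gave a difference of -0.55 in 1427001_s_at (exact two-sided permutation p = 0.00476, the smallest that 210 arrangements allow). The same smallest p was reached by 1427000_at (-0.61) and 1421983_s_at (-0.78), while 1450447_at differed by -0.28 (exact permutation p = 0.0286). These tests treat the arrays as exchangeable, so the 2 cultures of a construct count as independent. In 3 of the 4 probe sets all mutant arrays lay below all others, as did 5.01% of all probe sets and 6.19% of genes.

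**Figure D2:**
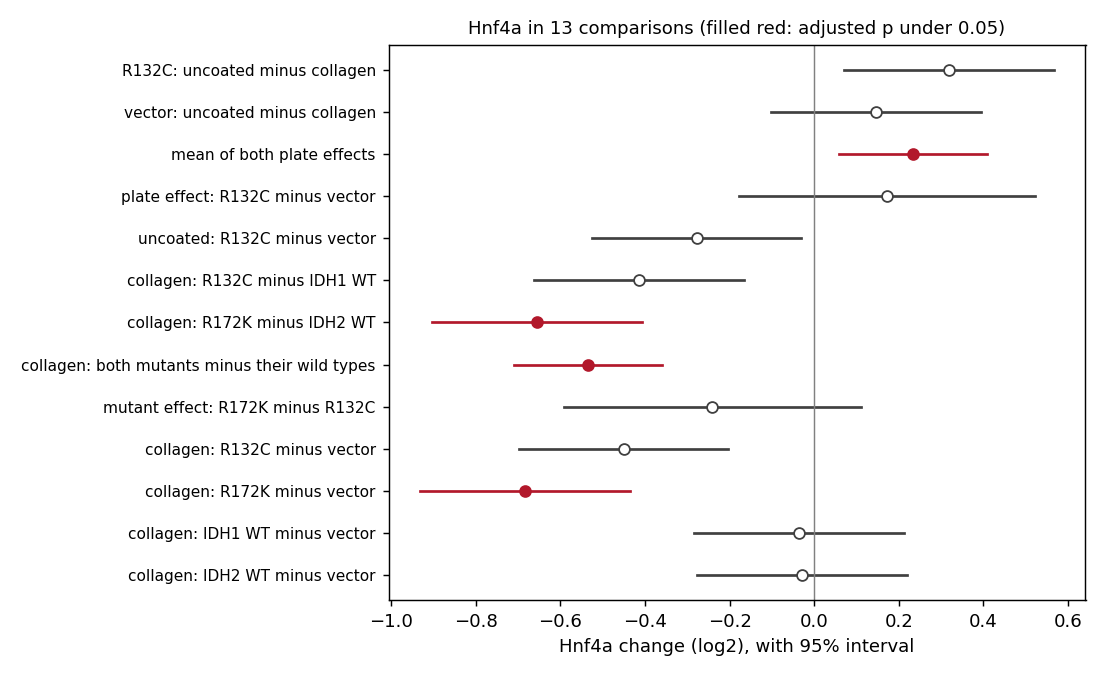
Change of Hnf4a (probe set 1427001_s_at, log2) with its 95% interval in 13 comparisons, filled red where the adjusted p passed. The mutant comparisons on collagen lie left of 0, and both wild-type comparisons against vector straddle it.

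The change of plate asks how Hnf4a behaved under the conditions the protocol names for hepatocyte differentiation. R132C cells on uncoated plates were higher than on collagen by 0.32 (SE 0.11, limma adjusted p = 0.0579; 25.9% of genes passed), with no overlap of their arrays. Vector cells were higher by 0.15 (SE 0.11, limma adjusted p = 0.400; 29.3% of genes passed), also without overlap. The value for R132C shares its collagen arrays with the comparison against IDH1 WT. Among the other probe sets, 1427000_at rose in R132C cells by 0.61 (SE 0.11, limma adjusted p = 0.00208; 23.2% of probe sets passed and 11.7% rose), while 1421983_s_at changed by 0.55 (limma adjusted p = 0.0541) and 1450447_at by 0.19 (limma adjusted p = 0.441). The gene's R132C call appears when dim genes are left out (adjusted p = 0.0458), with array weights (0.0364), with the mean of its probe sets (0.0110), without R132C replicate 1 on uncoated plates (0.0115) and without R132C replicate 1 on collagen (0.0443).

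Averaged over both kinds of cell, Hnf4a rose on uncoated plates by 0.23 (SE 0.081, limma adjusted p = 0.0352), where 40.2% of genes passed and 20.4% rose. A call is thus common in this comparison. It was lost with arrays centred on their median (adjusted p = 0.0526), without an intensity trend (0.0543), with only the arrays of those groups (0.0540) and without vector replicate 1 of either plate, vector replicate 2 on uncoated plates or R132C replicate 2 of either plate (0.0607 to 0.172). The exact permutation test of 4 uncoated against 4 collagen arrays gave p = 0.200 for 1427001_s_at (smallest possible p 0.0286). The plate effects differed by 0.17 (R132C minus vector, 95% interval -0.18 to 0.52, limma adjusted p = 1.00), a comparison in which 0.25% of genes passed. On uncoated plates R132C cells stood at -0.28 against vector cells (SE 0.11, limma adjusted p = 0.286; 2.39% of genes passed). The other probe sets differed there by -0.12 to -0.24, with no call.

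Most known direct targets of HNF4A had no call with the mutants, and many were dim. Of 40 listed, 35 were measured and 18 of these had a mean no higher than the arrays' lower quartile, close to background. Here and in the lists below, both mutants means the average of the 2 mutant effects. R132C alone against IDH1 WT called 0 members of any list, where 0.0484% of all genes passed. With both mutants 3 fell and 0 rose, against 2.44% and 1.18% of all genes. The median change of the list was 0.0049, against -0.014 over all genes, and it includes the 18 close to background. The 3 were Vil1, Ambp and Pklr. In 4 of the 8 settings that each left out 1 array of the mutant or wild-type IDH cells, only 1 fell: without IDH1 WT replicate 1, R132C replicate 1 or 2, or IDH2 WT replicate 2. Averaging the probe sets of each gene also left 1 that fell, and 1 that rose. Without R172K replicate 2, 3 rose.

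Vil1 encodes villin, an actin-bundling protein of microvilli. Its log2 level was 7.31 and 7.13 in R172K cells, 8.32 and 8.48 in IDH2 WT cells, 7.92 and 7.79 in R132C cells and 8.56 and 8.30 in IDH1 WT cells, so each mutant lay below its wild type. The change with both mutants was -0.87 (SE 0.11, limma adjusted p = 0.00156), and it passed in all 23 alternatives. Ambp, the precursor of alpha-1-microglobulin and bikunin, was at log2 7.09 and 6.68 in R172K cells, 8.33 and 8.67 in IDH2 WT cells, 8.26 and 8.43 in R132C cells and 8.72 and 8.52 in IDH1 WT cells. The wider gap of the mutants to their wild types was that of R172K cells. Its change of -0.94 (SE 0.23, limma adjusted p = 0.0426) lost the call in 16 of 23 alternatives, among them 10 of the 14 that left out 1 array (adjusted p up to 0.172). Pklr, the pyruvate kinase of liver and red cells, changed by -0.52 (SE 0.10, limma adjusted p = 0.0182) and kept its call in 17, losing it in 5 that left out 1 array (adjusted p up to 0.0905). Apob, which encodes an apolipoprotein (-0.46), and the anticoagulant protein C gene Proc (-0.55), both well expressed, had no call (limma adjusted p = 0.261 and 0.0650).

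On uncoated plates 7 targets rose and 1 fell in R132C cells, against 13.6% and 12.3% of all genes. In vector cells 8 rose and 0 fell, against 15.1% and 14.2%. In R132C cells Ambp rose 11.6-fold, Vil1 5.14-fold, the lipoprotein lipase cofactor Apoc2 3.05-fold and Apob, the structural protein of low-density lipoprotein, 2.32-fold. In vector cells transthyretin, Ttr, a carrier of thyroid hormone and retinol, rose 8.33-fold, Ambp 5.78-fold, Apoc2 4.92-fold and Vil1 4.23-fold. The gene that fell in R132C cells was G6pc, glucose-6-phosphatase, by 0.34 at a level near background.

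On uncoated plates 3 targets were lower in R132C than in vector cells and 0 were higher, against 1.49% and 0.896% of all genes. Ttr was at log2 7.35 and 7.47 in R132C cells and 9.31 and 8.96 in vector cells (-1.73, limma adjusted p = 2.63e-05). Apoc2 differed by -1.25 (limma adjusted p = 0.0476), a call lost in 16 of 23 alternatives, and Nr1i2, the pregnane X receptor, by -1.07 (limma adjusted p = 0.00282). Without dim genes the list had 1 call here. For Ttr the plate effect itself differed between R132C and vector cells, by -1.91 (SE 0.21, limma adjusted p = 0.000808). Ambp and Vil1 had no call for that difference.

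**Figure D3:**
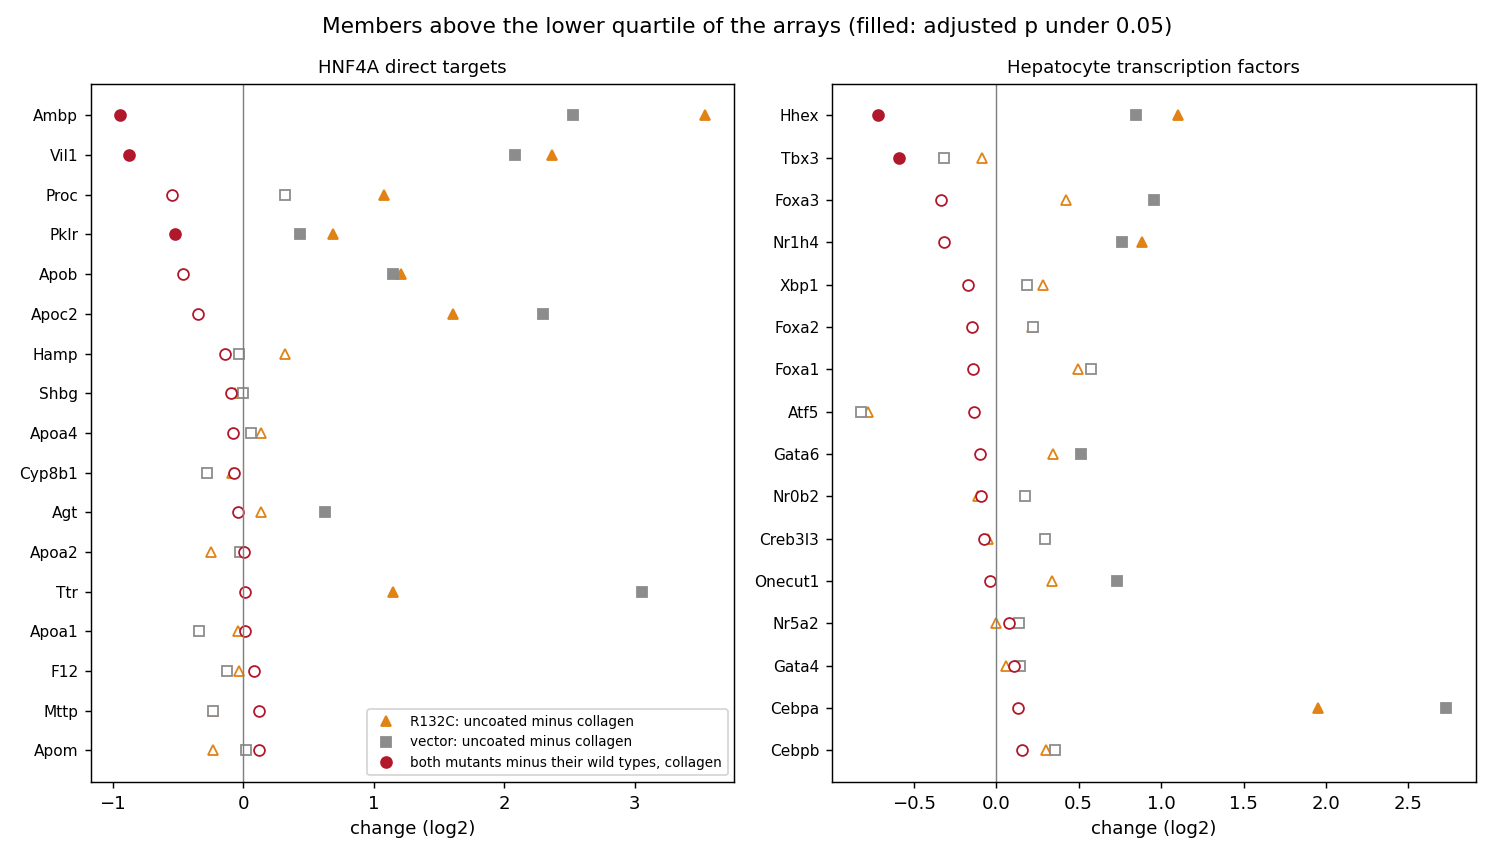
Log2 changes of 17 direct HNF4A targets (left) and 16 hepatocyte transcription factors (right) with a mean above the lower quartile, for the uncoated plates in R132C and in vector cells and for both mutants, filled where the adjusted p passed. Ambp, Vil1 and Pklr lie left of 0 with the mutants and right of 0 on uncoated plates, while Ttr is filled for the plates and not for the mutants.

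Among 20 measured members of the hepatocyte factor network, 2 fell with both mutants and 0 rose, against 2.44% and 1.18% of all genes. Hhex, a homeobox factor of the liver bud, was at log2 10.81 and 10.52 in R172K cells, 11.78 and 11.91 in IDH2 WT cells, 11.51 and 11.58 in R132C cells and 11.98 and 11.61 in IDH1 WT cells, a change of -0.71 (SE 0.11, limma adjusted p = 0.00462). In R132C against IDH1 WT alone Hhex changed by -0.25, without a call. With both mutants Tbx3, a T-box factor of hepatoblasts, changed by -0.59 (SE 0.12, limma adjusted p = 0.0217). Hhex passed in all 23 alternatives, and Tbx3 lost its call in 6 of the 14 that left out 1 array (adjusted p up to 0.0931). The partners of HNF4A had no call with the mutants: Foxa1 changed by -0.14, Foxa2 by -0.15, Foxa3 by -0.34 and Cebpa by 0.13. On uncoated plates 3 rose in R132C cells and 7 in vector cells, against 13.6% and 15.1% of all genes, with 0 that fell in either. Cebpa, which encodes C/EBP alpha, rose 3.87-fold in R132C cells and 6.63-fold in vector cells, and Hhex rose 2.15-fold in R132C cells and 1.80-fold in vector cells. The bile acid receptor gene Nr1h4 rose 1.85-fold in R132C cells.

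The closest relative, Hnf4g, lay under the lower quartile in every group mean and had no call (-0.16 with both mutants). Of 17 measured receptors that share the half-site repeat or the family, 1 fell with the mutants: Nr2f6, an orphan receptor of the COUP family, by 0.30 (SE 0.075, limma adjusted p = 0.0462; 2.44% of all genes fell), a call that held in 6 of 23 alternatives. On uncoated plates Nr2f6 and the retinoid X receptor gene Rxrb rose in R132C cells by 0.37 and 0.34. In vector cells Pparg, which encodes PPAR gamma, and Rxrb rose by 0.68 and 0.28. Pparg was lower in R132C than in vector cells on uncoated plates by -0.89 (limma adjusted p = 0.00324), a call lost without vector replicate 1 or R132C replicate 1 on uncoated plates (adjusted p up to 0.0546).

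Among 19 measured coactivators and corepressors of HNF4A, 2 rose with both mutants and 0 fell, against 1.18% and 2.44% of all genes. Ppargc1b, which encodes the coactivator PGC-1 beta, was at log2 8.05 and 7.71 in R172K cells, 6.89 and 6.45 in IDH2 WT cells, 7.50 and 7.24 in R132C cells and 6.72 and 6.51 in IDH1 WT cells. Its change was 0.98 (SE 0.15, limma adjusted p = 0.00469), opposite in direction to Hnf4a, and it passed in all 23 alternatives. Ncoa1, the steroid receptor coactivator, changed by 0.36 (limma adjusted p = 0.0321) and lost its call in 6 settings that left out 1 array (adjusted p up to 0.114). Ppargc1a, which encodes PGC-1 alpha, had no call with the mutants (-0.17) but rose on uncoated plates 3.82-fold in R132C cells and 4.65-fold in vector cells. In all 5 rose and 0 fell in R132C cells, against 13.6% and 12.3% of all genes, and 5 rose and 2 fell in vector cells, against 15.1% and 14.2%.

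Of 20 measured factors and kinases known to act upstream of Hnf4a, 0 were called with both mutants. On uncoated plates 3 rose in R132C cells: the TGF beta receptor gene Tgfbr1 by 0.83, the WNT effector Tcf7l2 by 0.45 and beta-catenin Ctnnb1 by 0.27. In vector cells 5 rose, among them Onecut1, which encodes HNF6, by 0.73, Tgfbr1 by 0.53 and Gata6 by 0.51. Of all genes 13.6% rose in R132C cells and 15.1% in vector cells, and the share of the list in R132C cells was near that background. None of this list was called between R132C and vector cells on uncoated plates.

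Of 15 measured cell division genes that HNF4A is reported to repress, 0 were called with both mutants (median change 0.12). On uncoated plates 14 fell in R132C cells and all 15 in vector cells, against 12.3% and 14.2% of all genes. The checkpoint kinase gene Bub1 fell by 1.38 in R132C cells and by 1.87 in vector cells. Between R132C and vector cells on uncoated plates 7 were higher and 0 lower, against 0.896% and 1.49% of all genes, led by Mki67 (0.86), Ect2 (0.85) and Top2a (0.82). The calls of these 3 were lost in 5, 6 and 4 of 23 alternatives, among them those without vector replicate 1 or R132C replicate 1 on uncoated plates (adjusted p up to 0.367, 0.401 and 0.235). Over the 14 arrays all 15 correlated negatively with Hnf4a (median r = -0.53, against 0.22 over 3895 genes compared). That correlation is a description over arrays that share groups and plates.

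Of 21 measured intestinal HNF4A targets and partners, 5 rose and 0 fell on uncoated plates in R132C cells, and 12 rose and 0 fell in vector cells. The shares over all genes were 13.6% and 12.3% in R132C cells and 15.1% and 14.2% in vector cells. Guanylin, Guca2a, rose 9.77-fold and the mucin Muc13 4.80-fold in vector cells, and both were lower in R132C than in vector cells on uncoated plates, by -2.34 and -1.87. In that comparison 7 of the list were lower and 0 higher, against 1.49% and 0.896% of all genes. With both mutants on collagen 2 fell, against 2.44% of all genes: Vil1 and the liver-intestine cadherin Cdh17, which changed by -0.85 (SE 0.11, limma adjusted p = 0.00172) and passed in all 23 alternatives.

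Of 20 measured junction and polarity genes, 4 fell with both mutants and 0 rose, against 2.44% and 1.18% of all genes. The adhesion molecule gene Epcam changed by -0.75 (SE 0.15, limma adjusted p = 0.0171), the claudin Cldn2 by -0.35, E-cadherin Cdh1 by -0.33 and keratin Krt18 by -0.20. With 1 array left out, the call of Cldn2 held each time, while those of Epcam, Cdh1 and Krt18 were lost in 6, 11 and 6 of 14 settings (adjusted p up to 0.0787, 0.185 and 0.0905). On uncoated plates 7 rose in R132C cells and 8 in vector cells, against 13.6% and 15.1% of all genes. Among them was occludin, Ocln, which rose 5.21-fold in R132C cells and 7.63-fold in vector cells. Epcam, the connexin gene Gjb1 and Cldn4 were lower in R132C than in vector cells on uncoated plates, by -1.49, -1.04 and -0.68. Epcam kept this call in all 23 alternatives. Gjb1 lost it without vector replicate 1 or R132C replicate 1 on uncoated plates and with only the arrays compared (adjusted p up to 0.174), and Cldn4 in 5 settings that left out 1 array and with only the arrays compared (up to 0.376).

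With both mutants 3 of 11 hepatoblast markers fell and 1 rose, while 2 of 12 biliary markers fell and 0 rose. Of 10 blood cell markers 1 fell and 0 rose. Of all genes 2.44% fell and 1.18% rose. Tbx3, Cdh1, Krt18 and Epcam, among these calls, were already counted in the lists above, so they are not separate results. Of 17 measured mature hepatocyte markers 0 were called with both mutants, and 11 lay under the lower quartile on every array. Their summed intensity was 329 to 355 in R172K and 359 to 363 in R132C cells, against 348 to 351 in IDH2 WT, 311 to 353 in IDH1 WT and 320 to 364 in vector cells. Of 20 mesenchymal markers the sum was 19050 to 23173 in R172K and 22324 to 23511 in R132C cells, against 22361 to 24215 in IDH2 WT, 23216 to 23906 in IDH1 WT and 21890 to 24013 in vector cells. Of 11 hepatoblast markers Afp rose with both mutants by 0.84 (SE 0.15, limma adjusted p = 0.0114), while Tbx3, Cdh1 and Krt18 fell. The summed hepatoblast markers stood at 51328 to 54949 in R172K and 56264 to 56395 in R132C cells, against 58046 to 60078 in IDH2 WT, 59372 to 60255 in IDH1 WT and 59205 to 59551 in vector cells, so the sum was lower in all 4 mutant arrays, as Hnf4a was. On uncoated plates this sum was 58302 to 59069 in R132C and 54892 to 58011 in vector cells. As a sum of linear intensities it is weighted to its brightest members. On collagen Krt8, Krt18 and Hmga2 stood at log2 14.29, 14.02 and 13.12 in R132C cells. Afp, which rose, stood at 11.52 there and counts for less. Of 12 biliary markers Epcam and the Notch ligand gene Jag1 (-0.36) fell, and Krt19 and Sox9 had no call (0.05 and 0.25). The biliary sum was 39475 to 40303 in R172K and 40586 to 40772 in R132C cells, against 41155 to 41373 in IDH2 WT, 40863 to 41264 in IDH1 WT and 39740 to 42258 in vector cells. None of 20 mesenchymal and 14 endothelial markers was called, and 8 and 7 of them lay under that quartile on every array. Summed endothelial markers stood at 603 to 624 in R172K and 565 to 601 in R132C cells, against 562 to 572 in IDH2 WT, 519 to 532 in IDH1 WT and 542 to 566 in vector cells. Of 10 blood cell markers Cd14 fell by 0.51 (limma adjusted p = 0.0217), and their summed intensity was 766 to 990 in R172K and 936 to 1030 in R132C cells, against 1155 to 1182 in IDH2 WT, 1066 to 1131 in IDH1 WT and 1131 to 1299 in vector cells. On uncoated plates the blood sum was 924 to 977 in R132C and 1217 to 1398 in vector cells, and 2 of the 10 lay under the quartile on every array. The calls of Afp, Jag1 and Cd14 were lost in 2, 5 and 6 of the 14 settings that left out 1 array (adjusted p up to 0.0565, 0.145 and 0.114). The part of these markers in the result for Hnf4a was not tested.

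Genes that followed Hnf4a most closely were sought among 3895 genes with a mean above the 30th percentile and group means spanning at least 0.5 log2. The closest was Tmem223, a mitochondrial membrane protein gene, with r = 0.98 over 14 arrays and 0.97 over the 10 collagen arrays. Next came the endoderm factor Gata5 (0.95), the peroxisomal transporter Slc25a17 (0.94), the decarboxylase Ddc (0.94), the tetraspan protein Tm4sf4 (0.94), the EGF receptor inhibitor Errfi1 (0.94), Prr3 (0.94) and the interferon gamma receptor Ifngr1 (0.93). All 8 were lowest in R172K cells, and all but Ddc were highest in vector cells on uncoated plates. Hnf4a has these same extremes, so this largely follows from picking the genes by r over these arrays. Within groups, over the deviations of the 14 arrays from their group means, r was 0.78 for Tmem223, 0.89 for Errfi1 and 0.44 for Tm4sf4. With 2 arrays a group the deviations are mirror pairs, so r within groups rests on 7 independent values. The genes were also picked for r over the same arrays. Since the mutant groups set much of this likeness, the changes of these genes with the mutants are given as values only.

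Tmem223 was at log2 10.11 and 10.34 in R172K cells, 11.04 and 11.09 in IDH2 WT cells, 10.56 and 10.44 in R132C cells, 11.11 and 11.05 in IDH1 WT cells and 11.07 and 11.24 in vector cells on collagen. On uncoated plates it was at 10.70 and 11.13 in R132C cells and 11.37 and 11.33 in vector cells, with the same R132C culture the lower one as for Hnf4a. Ddc, which makes dopamine and serotonin from their precursors, had the widest span of the 8, with group means 1.77 apart and a change with both mutants of -1.07. The other 7 changed with both mutants by -0.71 to -0.33.

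The genes that most opposed Hnf4a were the phosphatase Dusp3 (r = -0.93), the lipid transfer protein Stard6 (-0.92), the AMPK subunit Prkag2 (-0.92), the orphan receptor Gprc5b (-0.91), the selenocysteine pathway kinase Pstk (-0.91), the exonuclease Isg20 (-0.91), Tmem243 (-0.90) and the mitochondrial topoisomerase Top1mt (-0.90). All 8 were lowest in vector cells on uncoated plates, and 7 were highest in R172K cells, which again largely follows from the selection. Gprc5b was highest in R132C cells on collagen. Within groups the likeness was weaker for some, with r of -0.06 for Isg20 and -0.19 for Dusp3 but -0.78 for Top1mt. Top1mt was at log2 8.75 and 8.67 in R172K cells, 8.17 and 8.11 in IDH2 WT cells, 8.37 and 8.52 in R132C cells, 8.16 and 8.16 in IDH1 WT cells and 8.17 and 8.06 in vector cells on collagen.

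**Figure D4:**
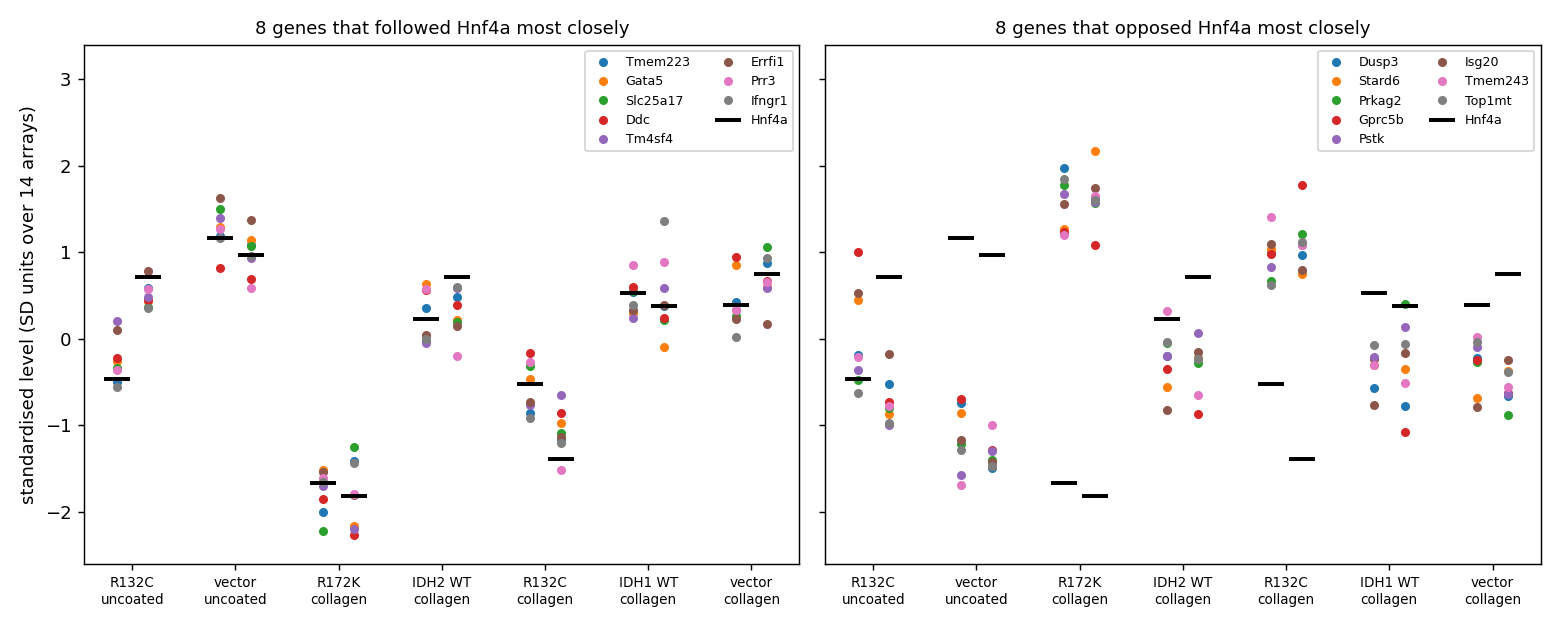
Standardised levels (SD units over 14 arrays) of the 8 genes that most followed (left) and most opposed (right) Hnf4a, by group, with Hnf4a as black bars. The 8 followers are lowest in the R172K arrays, with Hnf4a, which largely follows from their selection by r over these arrays.

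Of the direct targets 7 met the limits on level and span, and their r with Hnf4a was 0.49 to 0.86 (median 0.71). The limit on span kept targets that varied among these same groups, and the median r of all 3895 genes compared was 0.22. Measured targets outside the limits had r of -0.63 to 0.52. Pklr followed most closely (0.86 over 14 arrays, 0.89 over the collagen arrays), and Vil1 reached 0.72 over 14 arrays and 0.96 over the collagen arrays. For Ttr r was 0.49 over 14 arrays and 0.25 over the collagen arrays, where it stayed at log2 5.77 to 6.29. These r describe arrays that share groups.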

How the data were processed

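RNA of 14 hepatoblast cultures, 2 in each of 7 groups, was measured on Affymetrix Mouse 430A 2.0 arrays, and per the series text a replicate is a culture of its own. The authors deposited 1 intensity per probe set and array. Per the submitters' processing notes these came from RMA, a robust average over a probe set's probes. They were on a linear scale (array medians 135 to 148), so log2 of the deposited values was taken. Of 22690 probe sets, 64 were controls, 20380 carried 1 symbol in the platform annotation, 691 several and 1555 none. Each of 12393 genes was represented by its probe set of highest mean, and 22626 probe sets were also fitted singly.

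The 7 group means were fitted with limma 3.58.1 in R 4.3.3 (lmFit, eBayes with an intensity trend, 7 residual and 5.67 prior degrees of freedom), and p-values were adjusted by Benjamini-Hochberg over all genes, or all probe sets, of a comparison, with a threshold of 0.05. A change is tested minus control on the log2 scale. The fit was tested on simulated data. Levels at or under the arrays' lower quartile were treated as close to background, and detection calls were not used here.

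Members and lists were chosen with earlier results of these data known. Named from each of the 14 lists were up to 4 called members with the largest change (8 for direct targets), or the brightest where fewer than 2 passed, with Hnf4g, Cebpa, Foxa1, Foxa2, Foxa3, Nr0b2, Ppargc1a, Alb, Afp, Krt19 and Sox9 also without a call (Nr0b2, a corepressor, changed by -0.09 with both mutants). For likeness, the 8 highest and 8 lowest Pearson r were named, without predicted genes. Promoter sequences are RefSeq's, build GRCm38.p6. Some members of the lists and a further motif search are not reported here. Alternatives were the fit of all probe sets singly, gene values averaged over probe sets, a filter at the 30th percentile of level, cyclic loess, median centring, no trend, array weights, a replicate block, a fit of the compared groups alone, and leaving out 1 array at a time, which takes the spread of a single remaining array from the other groups.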

Additional observations from a re-analysis of the deposited data

Results flagged for a closer look

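For 4 listed genes the effect of the uncoated plate differed between R132C and vector cells by the test of that difference, in which 0.25% of genes passed. All 4 rose less in R132C cells. All 31 genes called in this test had a lower plate effect in R132C than in vector cells, so that direction is not particular to these 4. Ttr changed by 1.15 in R132C cells and 3.06 in vector cells, a difference of -1.91 (SE 0.21, limma adjusted p = 0.000808). Muc13, an intestinal mucin, changed by 0.34 in R132C cells and 2.26 in vector cells, a difference of -1.92 (SE 0.19, limma adjusted p = 0.000416). Guca2a, the gut peptide guanylin, changed by 1.01 in R132C cells and 3.29 in vector cells, a difference of -2.28 (SE 0.29, limma adjusted p = 0.00293). Cdhr5, a cadherin of the brush border, changed by 0.15 in R132C cells and 1.41 in vector cells, a difference of -1.26 (SE 0.23, limma adjusted p = 0.0391), and this call was lost in 15 of 23 alternatives, 11 of them leaving out 1 array (adjusted p up to 0.237). The calls of Ttr, Muc13 and Guca2a held in all 23. The difference for Hnf4a itself was 0.17, without a call.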

How the results depend on the processing

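The change of Hnf4a with both mutants kept its direction and its call in all 23 alternatives (-0.60 to -0.47, adjusted p = 0.00203 to 0.0319). For R132C on uncoated plates, Hnf4a gained a call without dim genes (0.32), with array weights (0.32) and with the mean of its probe sets (0.415), and leaving out 1 array gave 0.15 to 0.49. The mean plate effect lost its call with median centring (0.22), without a trend (0.23) and with only the arrays compared (0.23), and leaving out 1 array gave 0.15 to 0.32. R172K against IDH2 WT lost its call with array weights and with only the arrays compared (-0.66 in both; -0.73 to -0.58 leaving out 1 array), as did R172K against vector (-0.68 in both; -0.74 to -0.63). The F test of the 5 collagen groups had an adjusted p of 0.118 with array weights and 0.00971 to 0.0844 leaving out 1 array. Values near 0 changed sign: the plate difference of Hnf4a was -0.0012 to 0.35, IDH1 WT against vector -0.089 to 0.017, and IDH2 WT against vector 0.013 with the mean of probe sets and -0.10 to 0.043 leaving out 1 array. With both mutants, leaving out 1 array gave -0.36 to 0.083 for Foxa1, -0.26 to 0.079 for Nr0b2, -0.42 to 0.091 for Ppargc1a, -0.000945 to 0.10 for Krt19 and -0.055 to 0.078 for Ttr, none of them called. Among uncalled probe set changes, it gave -0.061 to 0.19 for 1450447_at on uncoated plates in vector cells, -0.00757 to 0.25 for it in the plate difference, -0.26 to 0.020 for it with R132C against IDH1 WT, and -0.022 to 0.31 for 1421983_s_at in the plate difference. Direct targets that fell in R132C cells on uncoated plates numbered 0 without dim genes and with loess, 2 with only the arrays compared and 0 to 1 leaving out 1 array. For the plate difference 2 fell with array weights and 1 to 2 leaving out 1 array, where 0 to 1 rose. Between R132C and vector cells on uncoated plates 1 fell without dim genes and 2 to 4 leaving out 1 array. With both mutants 1 rose and 1 fell with the mean of probe sets, and leaving out 1 array gave 0 to 3 that rose and 1 to 3 that fell. Apart from the exclusion of genes or arrays itself, the cause was not tested. Same-numbered cultures correlated in their deviations at r = 0.11 to 0.49 in all 10 pairs of collagen groups and at -0.041 to 0.26 in the 11 pairs with an uncoated group, 3 of them above 0.1. With 2 numbers a group, and no label that says what a number marks, the pairing is not settled. With the replicate block the change with both mutants was -0.54 (adjusted p = 0.00214) and no call of the gene changed, but 1421983_s_at gained calls on uncoated plates in R132C cells (0.55, adjusted p = 0.0104) and in vector cells (0.40, adjusted p = 0.0452), Proc gained one with both mutants, and 13 rather than 7 cell division genes were higher in R132C than in vector cells on uncoated plates. Another background correction was planned but not run, since the values are already summarised. Levels near the arrays' lower quartile limit what can be seen for dim genes and for 1450447_at.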
